A study of Mus musculus with 236 samples.

Results

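Bnc2, Megf11, Dusp27, Arl14epl, Gm14820 and Morc1 are 6 of the 39300 genes in the expression table, selected on their own readout. They were listed because a UMI of each was seen in most cells at day 0.5 and in far fewer at day 2.5. A UMI, or unique molecular identifier, marks 1 captured RNA molecule. The comparison between the days is therefore a description of how these genes were chosen, and no test was made of it. The residual day 2.5 cells, the spread among day 0.5 cells, the cell cycle classes and the batches are described from the same table.

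The cells were a female mouse embryonic stem cell line derived from blastocysts of a C57BL/6J mother and a CAST/EiJ father, so that every chromosome pair carries both parental alleles. They were kept on gelatin in serum medium with LIF, the GSK3 inhibitor CT99021 and the MEK inhibitor PD0325901, and differentiation was started by removing all 3 agents and plating on fibronectin in medium with serum. Cells were taken at day 0.5 and day 2.5, and chromatin contacts and RNA were read from the same cell with HiRES, a single-cell assay of both. All cells came from this line, and the labels name no cultures, clones or repeats, so each day was taken as 1 sample and no p-value or standard error was made from cells.

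The libraries, 120 of them from day 0.5, name 471 cells, and no cell name was shared between libraries. The expression table held 406 of them, 49.5% at day 0.5 with a median of 13670 UMIs (501 to 23213) and 50.5% at day 2.5 with a median of 15796 (529 to 29275). The authors' cell table gives 3 values under its sample header, called batches here, and does not say what they stand for. At day 0.5 80 cells were in batch 1 and the other 60.2% in batch 2, and at day 2.5 83 cells were in batch 3 and the other 59.5% in batch 2. All 10 embryonic stem cell markers were measured, and their sum was at 1269.96 UMIs per 1000000 UMIs of the day (CPM) at day 0.5 and 454 CPM at day 2.5. By a limit of 1.5-fold 7 of them were lower at day 2.5, among them Zfp42 (333.4 and 18.8 CPM), Sox2 (32.8 and 7.06 CPM) and Pou5f1 (31.3 and 13.5 CPM), and Sall4 (133.5 and 126.8 CPM), Lin28a and Tdgf1 were not. Summed markers of primitive endoderm were at 16.8 and 17.9 CPM, those of trophectoderm at 12.99 and 5.96 CPM, those of fibroblasts at 6.02 and 3.45 CPM and those of 2-cell-like cells at 0.753 and 0.628 CPM. Foxa2, Hand1, Postn, Zscan4c, Zscan4d, Tcstv1 and Tcstv3 had no UMI in either day.

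Mouse embryonic stem cells held in LIF and the inhibitors keep the naive state, a transcription factor network around Esrrb, Nanog and the KLF factors. When the agents are withdrawn, this network is shut down over the following days, formative genes such as Fgf5 and Otx2 come on, and female cells begin to inactivate an X chromosome. The 6 genes have unlike roles. Bnc2 encodes basonuclin 2, a zinc finger protein, and Megf11 a cell surface protein with EGF-like repeats that spaces neurons in the mouse retina. Dusp27, also named Styxl2, encodes an inactive relative of the dual specificity phosphatases known from muscle. Arl14epl is named for its likeness to an effector of the small GTPase ARL14, and Gm14820 is a predicted gene of the X chromosome. Morc1 encodes an ATPase of the MORC family that silences transposons in the mouse male germ line.

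Promoter windows of 300 bases around the start site were searched on both strands for motifs of the naive network, since the members were low together at day 2.5. Megf11, Morc1 and Gm14820 had no window, and none is given here for Arl14epl, so the matches below cover Bnc2 and Dusp27 alone. RefSeq windows (GRCm38.p6) on the minus strand of Bnc2 (chr4:84610148-84610447, inside the gene's span) and Dusp27 (chr1:166127849-166128148) are shown 5′ to 3′, with the 1 motif match in capitals.
Bnc2: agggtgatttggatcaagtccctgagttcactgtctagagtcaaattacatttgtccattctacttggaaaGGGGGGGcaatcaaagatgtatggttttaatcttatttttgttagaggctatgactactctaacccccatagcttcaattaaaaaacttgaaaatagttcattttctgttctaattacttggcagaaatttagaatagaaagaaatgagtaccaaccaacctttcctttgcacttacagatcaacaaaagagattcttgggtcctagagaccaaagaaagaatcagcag
Dusp27: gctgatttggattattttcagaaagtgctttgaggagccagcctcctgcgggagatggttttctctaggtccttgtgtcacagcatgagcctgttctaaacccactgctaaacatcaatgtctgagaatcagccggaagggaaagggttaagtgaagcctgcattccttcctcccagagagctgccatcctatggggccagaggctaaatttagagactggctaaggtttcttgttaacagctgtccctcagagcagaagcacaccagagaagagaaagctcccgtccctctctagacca
The Bnc2 window held 1 match of GGGNGGG, a KLF motif, before the start site, and 48.1% of 32851 RefSeq promoters of the same length hold this motif. It held 0 CG pairs, against a median of 7 over all promoters, and its G and C content was 36.3%. The Dusp27 window held no match, 3 CG pairs and a G and C content of 49.7%. The other letters searched were TCAAGGTCA for ESRRB, found in 0.423% of promoters, TNAAGGTCA in 1.28%, ATGCAAAT for OCT4 in 1.74%, CATTGT for SOX2 in 12.6%, TTCCNNGAA for STAT3 in 4.81% and CACGTG, an E-box, in 7.15%. Every match of TCAAGGTCA is also a match of TNAAGGTCA.

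By RefSeq (GRCm38.p6), Bnc2 spans 409 kb (chr4:84266804-84676029), Megf11 329 kb (chr9:64385617-64714179) and Morc1 199.7 kb (chr16:48431237-48630905). These spans exceed those of 96.1%, 94.6% and 89.4% of the 7397 genes with at least 100 UMIs and a RefSeq place, whose median was 44.3 kb. Dusp27 spans 29.8 kb (chr1:166098148-166127898) and Arl14epl 12.4 kb (chr18:46921812-46934222), at percentiles 35.7 and 11.03. Gm14820 was taken as a gene of the X chromosome from its listing in the authors' X chromosome allele table and has no place in the RefSeq table used here. The members thus lie on 6 chromosomes. Exonic UMIs were 26.3% of gene UMIs at day 0.5 and 24.2% at day 2.5. Levels are not per length and are not compared between members.

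All 6 members were high at day 0.5 and low at day 2.5 in both batches of each day. Their day 0.5 counts alone pass the minimum of 100 UMIs over both days, and the day 2.5 counts alone would pass it only for Bnc2 and Morc1. Bnc2 had 4069 UMIs at day 0.5 (0 to 76.5 per cell, median 17) and 193.5 at day 2.5 (0 to 12 per cell, median 0). Its level was 1532 CPM (95% exact Poisson interval 1485 to 1579.8) and 60.7 CPM (52.5 to 69.9), 25.2 times as high at day 0.5 (exact conditional interval 21.8 to 29.2). The ranges overlapped, although 61.7% of the day 0.5 cells lay above the highest day 2.5 cell. These intervals, like all others here, cover counting error only. Batch 2 alone holds cells of both days, and there Bnc2 was at 1479 and 66.2 CPM. The log2 changes within batch 2 lay between -5.03 for Gm14820 and -3.94 for Dusp27.

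Megf11 had 1646 UMIs at day 0.5 (0 to 61 per cell, median 4) and 76 at day 2.5 (0 to 6, median 0), which is 619.7 CPM (590.2 to 650.4) and 23.9 CPM (18.8 to 29.9). The fold between the days was 25.98 (20.6 to 33.1). Of the day 0.5 cells, 38.8% lay above the highest day 2.5 cell. In UMIs not scaled to depth, Megf11 was the only member with day 2.5 cells above its day 0.5 median, 6 in number. Morc1, the member with the largest remainder, had 1822.5 UMIs at day 0.5 (0 to 37 per cell, median 8), or 686 CPM (655 to 718). At day 2.5 it had 0 to 6 UMIs per cell (median 0), or 37.98 CPM (31.5 to 45.4). Its fold was 18.1 (15.0 to 21.9), which leaves 5.53% of the day 0.5 level, and 60.2% of day 0.5 cells lay above every day 2.5 cell.

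Gm14820, Dusp27 and Arl14epl had at most 12 UMIs over all day 2.5 cells. Gm14820 had 797.5 UMIs at day 0.5 (0 to 14 per cell, median 4) and 10.5 at day 2.5 (0 to 3), or 300.3 CPM (279.8 to 321.8) and 3.30 CPM (1.61 to 5.98), 91.1 times as high at day 0.5 (51.8 to 200.4). Dusp27 had 426 UMIs (0 to 10, median 2) and 12 (0 to 1), or 160.4 CPM (145.5 to 176.4) and 3.77 CPM (1.95 to 6.58), 42.6 times as high (24.1 to 83.1). Arl14epl had 309 UMIs (0 to 11, median 1) and 2 (0 to 1), or 116.3 CPM (103.7 to 130.1) and 0.628 CPM (0.0760 to 2.27). Of the Arl14epl level 0.540% was left, with a ratio of 0.00540 and an interval of 0.000651 to 0.0197 that rests on those 2 UMIs. In Gm14820, Dusp27 and Arl14epl 51.2%, 53.7% and 36.8% of day 0.5 cells lay above every day 2.5 cell.

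**Figure D1:**
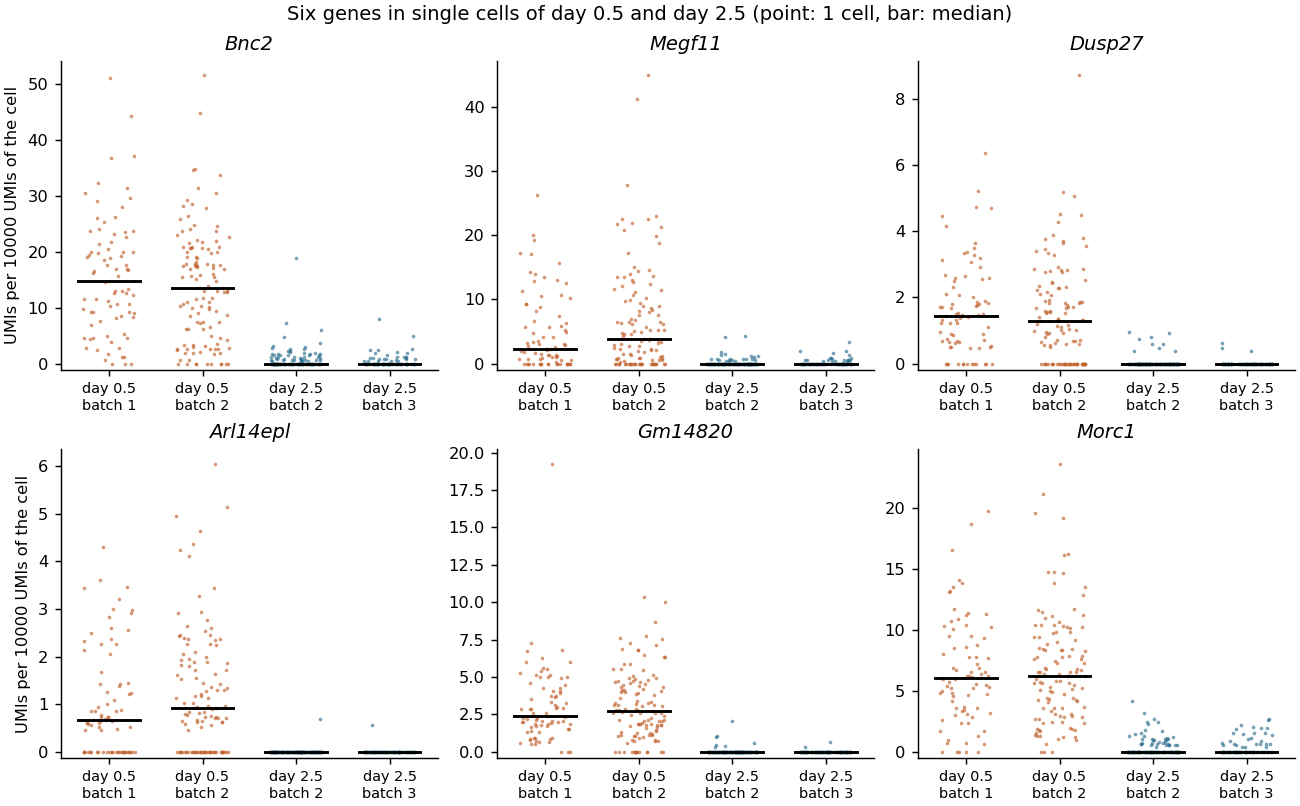
Each panel plots 1 gene as UMIs per 10000 UMIs of the cell for every cell, by day and batch, with the median as a black line. Medians are above 0 in both day 0.5 batches and at 0 in both day 2.5 batches for all 6 genes. The Bnc2 point at 18.9 in day 2.5 is a cell of 529 UMIs.

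Among all 7716 genes with at least 100 UMIs, 81 (1.05%) had a CPM ratio of day 2.5 over day 0.5 of at most 0.1, and all 6 members are among them by the way they were chosen. On the scale of log2((CPM day 2.5 + 5)/(CPM day 0.5 + 5)) the changes were -5.20 for Gm14820, -4.55 for Bnc2, -4.44 for Megf11, -4.43 for Arl14epl, -4.24 for Dusp27 and -4.01 for Morc1. These are ranks 4, 5, 6, 7, 10 and 15 from the lowest on this scale, where the pseudocount shrinks the changes of genes at low levels. By the CPM ratio itself the ranks in the same order were 5, 27, 25, 2, 8 and 41. Another rule, on the share of cells, a UMI in at least 50% of day 0.5 cells and in at most 10% of day 2.5 cells, was met by 23 genes (0.298%), of which Dusp27, Arl14epl and Gm14820 are members. Bnc2, Megf11 and Morc1 did not meet it, since their day 2.5 shares were above 10%. With each cell thinned to 5000 UMIs, 22 genes met this share rule and Arl14epl no longer did, since it was then seen in 39.7% of day 0.5 cells, which leaves 2 members.

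The share rule and the choice of the members both rest on the share of cells with at least 1 UMI, which is given here. Bnc2 was seen in 93.5% of day 0.5 cells (Clopper-Pearson interval 89.2 to 96.5) and in 74 day 2.5 cells, 36.1% (29.5 to 43.1). Morc1 was seen in 96.02% (92.3 to 98.3) and in 64 cells, 31.2% (24.9 to 38.05). Megf11 was seen in 75.1% (68.6 to 80.9) and in 41 cells, 20% (14.8 to 26.1). Of day 0.5 cells, 91.5% showed Gm14820, 75.6% Dusp27 and 67.7% Arl14epl. At day 2.5 they were in 8, 12 and 2 cells, 3.90% (1.70 to 7.54), 5.85% (3.06 to 10.0) and 0.976% (0.118 to 3.48).

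Deeper cells show more genes, so each cell was also thinned to 5000 UMIs, which leaves out 7 cells of each day. The day 0.5 shares were then 93.8% for Bnc2, 88.7% for Morc1, 77.8% for Gm14820, 62.9% for Megf11, 52.1% for Dusp27 and 39.7% for Arl14epl. The day 2.5 shares were 21.7%, 12.6%, 2.53%, 10.1%, 2.02% and 0.505% in the same order. As a measure of stray reads, 8 genes of distant tissues such as Alb, Ins2 and Myh6 were each seen in at most 7 cells, 3.48% of day 0.5 and 3.41% of day 2.5 cells. At day 2.5 Arl14epl lay below this highest stray share. Gm14820 and Dusp27, in 8 and 12 cells, were seen in more cells than any stray gene, though their intervals include that share. The 8 stray genes had 28 UMIs together at day 2.5. Whether the residual UMIs of these members are stray reads was not tested. Dusp27 was above the highest stray share in some of the day 2.5 labels, at 7.38% (3.43 to 13.5) in batch 2. In batch 3 it was at 3.61% (0.752 to 10.2). By class it was in 4 of 15 Early-S cells, 26.7% (7.79 to 55.1), each with 1 UMI. The other classes were at 14.3% in M, 11.8% in Late-S, 6.45% in Mid-S, 1.22% in G1 and 0% in G2 and G0. After thinning to 5000 UMIs it was in 1 of 15 Early-S cells and in 3.42% of batch 2 cells. The stray genes were counted over the whole day and not by label. The shares of Bnc2, Morc1 and Megf11 lay above the highest stray share. Genes of distant tissues cannot gauge stray reads from day 0.5 cells, and such reads were not tested for any member.

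**Figure D2:**
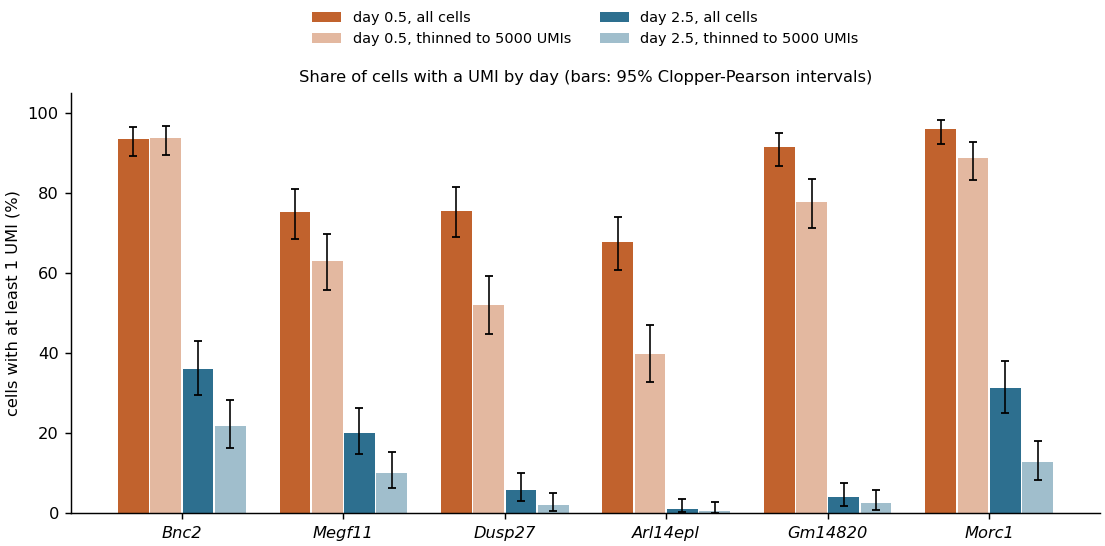
Bars give the percentage of cells with at least 1 UMI of each gene by day, in all cells (dark) and after thinning each cell to 5000 UMIs (light), with 95% Clopper-Pearson intervals. Bnc2, Megf11 and Morc1 keep 20% to 36.1% of day 2.5 cells, and the other genes at most 5.85%.

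Most residual cells held fewer than 5 UMIs of a gene. Of the 74 day 2.5 cells with Bnc2, 28 had a single UMI and 9 had 5 or more. Of the 41 with Megf11, 28 had a single UMI and 6 had 5 or more, and of the 64 with Morc1, 34 had a single UMI and 2 had 5 or more. All 12 Dusp27 cells and both Arl14epl cells had 1 UMI, and 7 of the 8 Gm14820 cells had fewer than 2. The Bnc2 remainder was spread over cells, since the cell with most UMIs held 6.202% of them. Cells with Bnc2 were deeper than those without, with medians of 17074.5 and 15349 UMIs.

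The number of members seen together went from nearly all to few. At day 0.5 all 6 were seen in 80 cells, 5 in 77, 4 in 24, 3 in 9, 2 in 7, 1 in 2 and none in 2. At day 2.5 none was seen in 69 cells, 1 in 82, 2 in 46, 3 in 6, 4 in 1 and 5 in 1. The 2 day 0.5 cells without any member had a median of 1343.5 UMIs, and no cell was without a member among those thinned to 5000 UMIs. After thinning, 15 day 2.5 cells showed 2 or more members in place of 54.

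**Figure D3:**
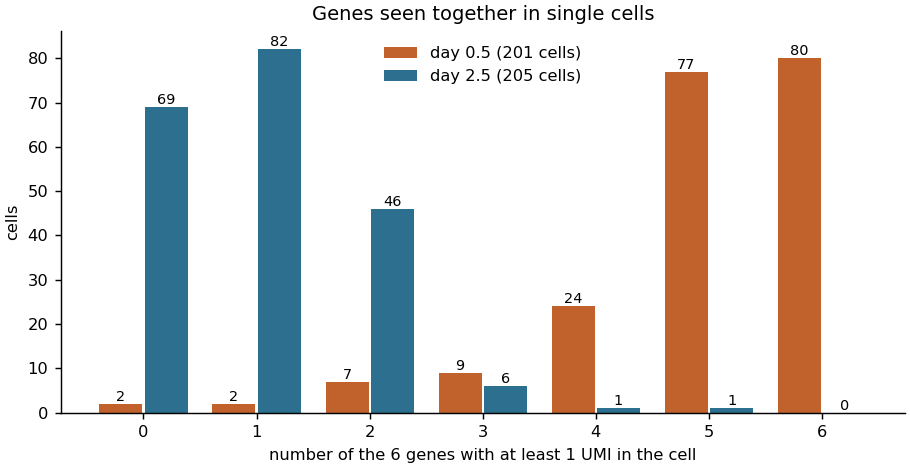
Bars count cells by how many of the 6 genes had at least 1 UMI, for all cells of each day. Day 0.5 cells crowd at 5 and 6 genes and day 2.5 cells at 0, 1 and 2, with 1 day 2.5 cell at 5.

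The overlap of residual cells lay near the members' shares in all day 2.5 cells for the pairs with most cells. Bnc2 and Morc1 were together in 27 cells, 36.5% of the Bnc2 cells and 42.2% of the Morc1 cells, where Morc1 was seen in 31.2% and Bnc2 in 36.1% of all cells. Bnc2 and Megf11 shared 17 cells, 22.97% of the Bnc2 and 41.5% of the Megf11 cells, and Megf11 and Morc1 shared 12, 29.3% and 18.8%. Dusp27 shared 5 of its 12 cells with Bnc2, 5 with Morc1, 1 with Megf11 and none with Gm14820 or Arl14epl. After thinning, Bnc2 and Morc1 shared 7 cells, 28% of 25 Morc1 cells, and Bnc2 and Megf11 7, 35% of 20 Megf11 cells, where Bnc2 was seen in 21.7% of all cells. Over the 96.6% of day 2.5 cells that had at least 5000 UMIs, the median Pearson correlation of the 15 pairs was 0.14 on the scale of log2(1 + UMIs per 10000). Without the single cell that showed 5 members it was -0.02, so this median rests on that cell. Cells share their library and depth, and the values describe these cells only.

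That cell, chosen for description because it alone showed 5 members, had 7 UMIs of Bnc2, 6 of Megf11, 6 of Morc1, 3 of Gm14820, 1 of Arl14epl and none of Dusp27, at a depth of 14548 UMIs. It had the highest count of the day for Megf11, Morc1 and Gm14820 and rank 4 for Bnc2. It was also the only day 2.5 cell that the authors placed in their cluster 2, which holds 92.5% of day 0.5 cells. The files do not say whether the clusters were built with these genes. Its 16 naive pluripotency genes summed to 11 UMIs, against 0 to 9 in the other day 2.5 cells and a day 0.5 median of 18.5. Of these, Zfp42 had 3 UMIs and Nr5a2 2. Xist, the RNA that coats the inactive X, had 1.5 UMIs against a median of 8.5 in the other day 2.5 cells. Sema6a, with a median of 38 in those cells, had 0. The formative list was at 54 UMIs, near the day 2.5 median of 47.25. The other cell of its library had 13352 UMIs and none of the 6 members. The sum of the members was 23 UMIs, against 0 to 14 in the other day 2.5 cells and a day 0.5 median of 42.

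Across day 2.5 cells, the summed members and the summed naive genes had a low correlation in sparse counts. Outside the cell that showed 5 members, the medians were 1 UMI for the members and 2 UMIs for the naive list. Counts this low pull a correlation towards 0 whatever the relation, so the day 2.5 values cannot show that there is none. The correlation of the summed members with the summed naive list was 0.11 over the same cells (0.12 in batch 2 and 0.11 in 81 batch 3 cells) and 0.06 without the cell that showed 5 members (0.03 in batch 2). Inside day 0.5 it was -0.07 over the 96.5% of cells that had at least 5000 UMIs.

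**Figure D4:**
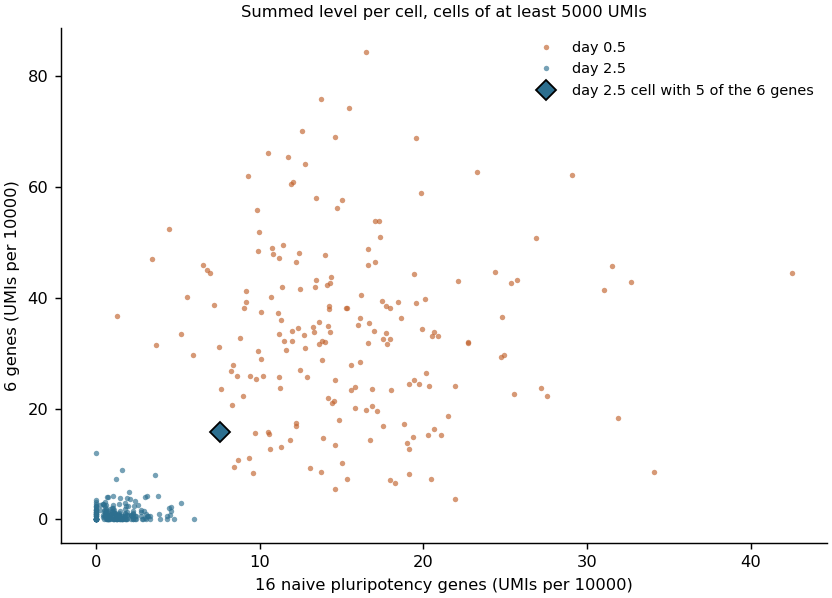
Each point is a cell of at least 5000 UMIs, with the summed naive pluripotency list on the horizontal and the 6 summed genes on the vertical axis, both as UMIs per 10000. The days form separate clouds, and the marked day 2.5 cell, at 7.56 and 15.8, lies at the edge of the day 0.5 cloud.

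The residual levels of Bnc2, Megf11 and Morc1 did not differ between the batches of day 2.5 beyond counting error. In batches 2 and 3, Bnc2 was at 66.2 and 53.9 CPM, a ratio of batch 3 over batch 2 of 0.814 (0.599 to 1.09), Megf11 at 22.3 and 25.9 CPM (1.16, 0.701 to 1.82) and Morc1 at 36.6 and 39.7 CPM (1.084, 0.744 to 1.57). Batch 3 holds day 2.5 cells alone. Dusp27, Gm14820 and Arl14epl had 9, 8.5 and 1 UMIs in batch 2 and 3, 2 and 1 in batch 3, too few to compare. Megf11 was at 31.5 CPM in the 83 cells outside the allele table and 18.5 CPM in those inside it, a ratio of 1.70 (1.09 to 2.84). That ratio was 0.904 (0.463 to 1.83) in batch 2 and 3.56 (1.75 to 8.69) in batch 3, where it rests on 26 and 10.5 UMIs. For Morc1 it was 0.964 (0.657 to 1.41) over both batches, 0.457 (0.243 to 0.817) in batch 2 and 2.06 (1.18 to 3.68) in batch 3, in opposite directions. Bnc2 stood at 329.7 CPM (192.1 to 528) in the 4 cells of the authors' G0 class, from 17 UMIs of which 1 cell held 11, and at 47.5 to 74.1 CPM in the other classes.

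Inside day 0.5, levels were close between the batches. None of the 6 members passed 1.5-fold between batch 2 and batch 1, where 38 of 2659 genes at 100 CPM or more did (1.43%). Megf11 came nearest, at 525 CPM in batch 1 and 699 CPM in batch 2, a ratio of 1.33 (1.21 to 1.47) that is larger than those of 96.5% of genes. The other ratios lay between 0.860 for Dusp27 and 1.18 for Arl14epl. The labels name no culture for a batch, so batch and culture cannot be told apart.

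Bnc2, Megf11 and Dusp27 were low in 1 cell cycle class of day 0.5. The authors' class M, mitosis by its name, held 15 day 0.5 cells, and the files do not say how classes were assigned. Bnc2 was at 81.4 CPM in M (9 UMIs, 0 to 3 per cell) and 1595 CPM in the other cells (0 to 76.5 per cell, median 19), a ratio of 0.0510 (0.0233 to 0.0970). Megf11 was at 27.1 and 645 CPM, a ratio of 0.0420 (0.00866 to 0.123) from 3 UMIs, and Dusp27 at 27.1 and 166.2 CPM, a ratio of 0.163 (0.0335 to 0.480), also from 3 UMIs. The intervals of Morc1 (552 and 692 CPM, 0.797, 0.607 to 1.03), Gm14820 (212.6 and 304 CPM, 0.699, 0.455 to 1.07) and Arl14epl (104.02 and 116.9 CPM, 0.890, 0.474 to 1.64) include equal levels. Thus 3 of the 6 members were below 1/1.5 in M, as were 939 of 3335 genes (28.2%) at 100 CPM or more in either set.

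The ratios of Bnc2 and Megf11 were smaller than those of all but 1.02% and 0.840% of these genes, and that of Dusp27 than all but 4.26%. Genes spanning at least 100 kb had a median M ratio of 0.476 (950 genes) and shorter genes one of 1.58 (2293 genes). Morc1, at 199.7 kb, was above the median of its length class and Dusp27, at 29.8 kb, below that of its own. Bnc2 was at 0.0498 in batch 1 and 0.0520 in batch 2, and Megf11 at 0.0757 and 0.0314. Dusp27 was at 0.462 in batch 1, from 2 UMIs in 4 cells, and 0.0737 in batch 2, and Gm14820 at 1.44 and 0.485. The M cells had a median of 5818 UMIs, all lay outside the allele table and 13 of 15 were in the authors' cluster 4. With the 9 M cells of at least 5000 UMIs the Bnc2 ratio was 0.0585 (0.0267 to 0.111). Exonic UMIs were 26.3% of gene UMIs in M as in the day as a whole.

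Bnc2 and Megf11 were higher in the later classes of S phase than in G1. Bnc2 was at 967 CPM in G1 (41 cells), 1571 in Early-S (32), 1665 in Mid-S (87), 2289 in Late-S (20) and 1741 in G2 (6 cells). Megf11 was at 388, 649, 670.4, 989 and 444 CPM in that order. The Late-S over G1 ratios of the CPM were 2.37 (2.11 to 2.66) for Bnc2 and 2.55 (2.13 to 3.08) for Megf11, past 1.5-fold as in 327 of 2849 genes (11.5%), and larger than those of 97.7% and 98.2% of genes. They were 1.94 and 2.29 in batch 1 and 2.66 and 2.78 in batch 2. Morc1 was flat, at 671 CPM in G1 and 668 CPM in Late-S, a ratio of 0.996 (0.835 to 1.19), and Dusp27, Arl14epl and Gm14820 were at ratios of 1.39, 1.44 and 1.24 with intervals that include 1. Morc1 was at 1.30 in batch 1 and 0.829 in batch 2, again with intervals that include 1. The median ratio was 0.993 for genes spanning at least 100 kb and 0.943 for shorter ones, which lie closer together than in M. Late-S cells had a median of 17627.5 UMIs and G1 cells 11905, and the part of depth in these ratios was not tested.

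**Figure D5:**
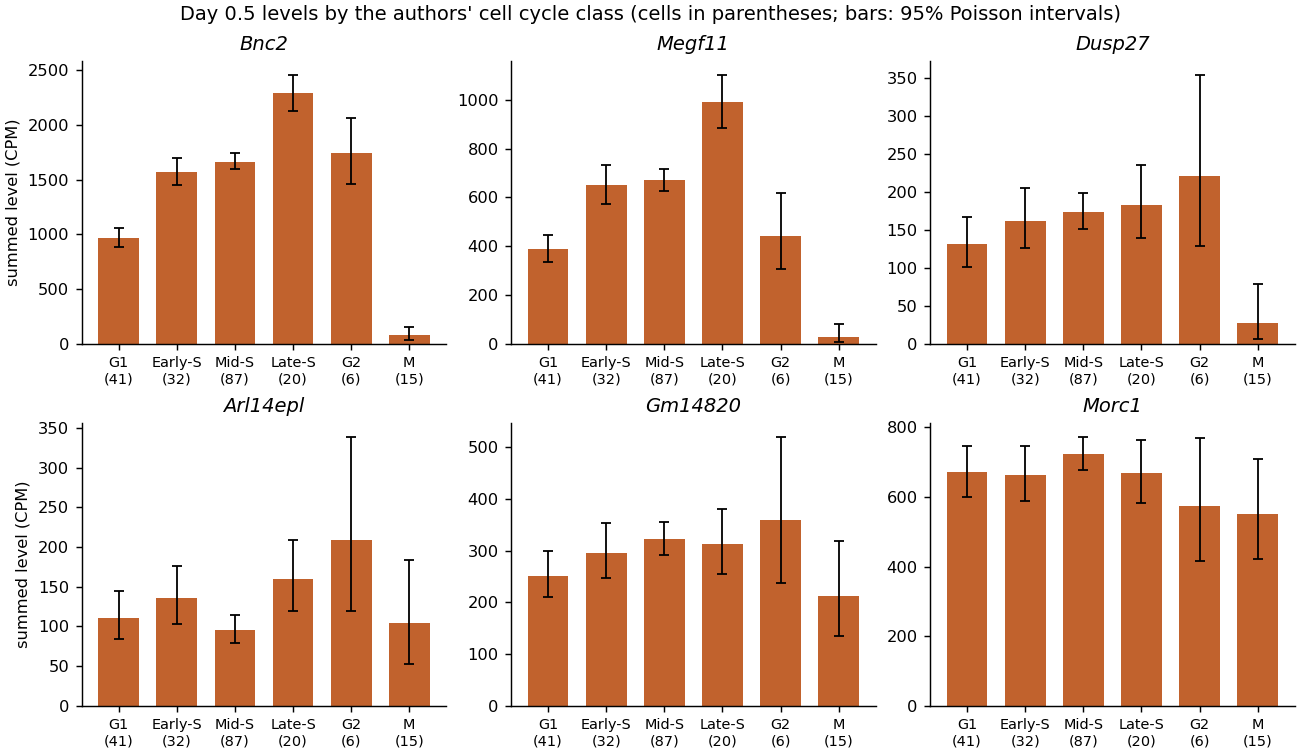
Bars give each gene's summed CPM in the day 0.5 cells of each cell cycle class assigned by the authors, with the number of cells in parentheses and 95% Poisson intervals. Bnc2 and Megf11 are highest in Late-S and near 0 in M, Dusp27 is low in M, and Morc1 lies between 552 and 724 CPM in every class.

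Over all day 0.5 cells Megf11 was the most uneven member and Gm14820 the most even. The measure was the variance of depth-scaled UMIs beyond counting error over the squared mean, which is 0 for cells that share 1 level. It was 1.43 for Megf11, above 90.6% of 5126 genes with at least 100 day 0.5 UMIs, whose median was 0.455. Bnc2 was at 0.452, Arl14epl at 0.411, Dusp27 at 0.330 and Morc1 at 0.322, at or below that median. Gm14820 was at 0.149, above 11.9% of genes, with 0.00249 in batch 1 and 0.251 in batch 2. Among cells of at least 5000 UMIs it was at 0.203, above 18.8% of genes, and without the M class at 0.197. The lowest member was another in 2 subsets. In the G1 class alone Dusp27 was lower, at 0.162 against 0.289 for Gm14820, and in cells of letter B, a letter in the cell names, Arl14epl was, at -0.0931 against 0.240.

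Cells without Megf11 were far more frequent than its level gives by counting. It was below 1 UMI in 24.9% of day 0.5 cells, where 1 shared level and each cell's depth give 1.32%, and in 20.4% against 0.240% without the M class. In the 41 G1 cells it was below 1 UMI in 46.3% against 1.48%, with counts from 0 to 30 and a median of 1, and the measure was 1.97, above 99.4% of 1235 genes. The 20 cells with most Megf11 held 41.7% of its UMIs, against 25.2% to 35.4% for the 20 top cells of the other members. Among cells of at least 5000 UMIs the tenth percentile was 0, the median 3.24 and the ninetieth 14.6 UMIs per 10000. Over all day 0.5 cells every other member was also below 1 UMI more often than counting gives. Gm14820 was so in 8.46% of cells where counting gives 5.03%, and Dusp27 in 24.4% where it gives 15.8%. Arl14epl was at 32.3% against 24.8%, Morc1 at 3.98% against 1.14% and Bnc2 at 6.47% against 0.484%. Without the M class Bnc2 was at 1.61% against 0.00238%.

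The members varied with only a weak relation to each other in day 0.5 cells. Over the cells of at least 5000 UMIs the Pearson correlations of the 15 pairs ran from -0.03 (Megf11 and Gm14820) to 0.26 (Bnc2 and Dusp27), with a median of 0.09, and 14 of 15 were above 0. Without the M class the median was 0.09 too. Correlations of the members with depth lay between 0.00 and 0.22. Values this low in sparse counts are given as a description only.

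The genes whose values went most with a member across these cells, out of 5126 genes, were Ext1, a heparan sulfate glycosyltransferase (0.55), the receptor phosphatase Ptprg (0.51) and Phf21a (0.50) for Bnc2. They were at 0.39, 0.32 and 0.34 without the M class. For Megf11 they were Tenm4, a teneurin (0.38), Pola1, the catalytic subunit of DNA polymerase alpha (0.33), and Gpc3, a glypican (0.31). For Dusp27 they were Tenm4 (0.34), Diaph2 (0.34) and Ext1 (0.33), which span 739.9, 716 and 278 kb. Without the M class the values were 0.29, 0.25 and 0.24 for Megf11 and 0.24, 0.27 and 0.22 for Dusp27. For the others the highest values were 0.27 for Arl6ip6 with Arl14epl, 0.30 for the elongation factor Eef1g with Gm14820 and 0.25 for C2cd5 with Morc1. Without the M class Arl6ip6, Eef1g and C2cd5 were at 0.32, 0.31 and 0.26. Between the days, Ext1 was at 2110.3 and 2100.7 CPM and Tenm4 at 1685 and 417 CPM.

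In the authors' pseudotime, an ordering of the cells of the allele table along a path, no member was lower late in day 0.5 beyond its counting interval. In the 93 cells up to the day's median pseudotime and the 93 above it, Bnc2 was at 1433 and 1746 CPM, a ratio of late over early of 1.22 (1.15 to 1.30). Megf11 was at 562 and 723 CPM (1.29, 1.16 to 1.42) and Arl14epl at 95.7 and 136.6 CPM (1.43, 1.12 to 1.81). Bnc2, Megf11 and Arl14epl were thus higher late in day 0.5. Morc1 was at 694 and 690.4 CPM, Gm14820 at 317 and 292 CPM and Dusp27 at 168.7 and 163.9 CPM. In the 61 cells up to the median pseudotime of day 2.5 and the 61 above it, Bnc2 was lower late, at 68.9 and 42.5 CPM, a ratio of late over early of 0.616 (0.399 to 0.919). The cell that showed 5 members lies in the earlier set, and without it the Bnc2 ratio was 0.682 (0.438 to 1.03), so that its interval included 1. Megf11 was at 22.97 and 14.2 CPM (0.616, 0.301 to 1.32) and Morc1 at 45.9 and 31.5 CPM (0.685, 0.414 to 1.12), and without that cell their ratios were 0.849 and 0.786. Dusp27, Gm14820 and Arl14epl had at most 4 UMIs in either set. The files do not say whether the ordering was built with these genes.

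Gm14820 was read from both X chromosomes at day 0.5. Of 423 UMIs that the allele table assigned to a parental allele, 50.4% (45.5 to 55.2) came from C57BL/6J and 210 from CAST/EiJ, with 48.9% in batch 1 and 51.5% in batch 2. Among the 92.5% of day 0.5 cells in that table, both alleles were seen in 77 cells, only C57BL/6J in 35, only CAST/EiJ in 41 and neither in 33. At day 2.5 a single C57BL/6J UMI remained in the 59.5% of cells in that table, so no allelic share can be given there.

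Other genes of the members' families were not low together. Counting a CPM ratio of at most 1/1.5 as lower and of at least 1.5 as higher, 25.6% of 13777 genes with at least 20 UMIs were lower and 21.4% higher at day 2.5. Of 5 other MEGF genes none was lower. Megf6 was higher, at 11.5 and 24.3 CPM, and Megf10, the closest relative of Megf11, was at 4.52 and 5.34 CPM. Of 4 other Morc genes Morc3 (384 and 254 CPM) and Morc4 (25.6 and 13.5 CPM) were lower, and Morc2a was at 142.3 and 178.4 CPM. Of 6 other phosphatase relatives, Dusp1 and Styxl1 were lower and Dusp3 higher, each on fewer than 50 UMIs. Styxl1, the nearest by name to Styxl2, was at 6.401 and 2.04 CPM, a ratio of 0.319 (0.0950 to 0.782), and Styx was at 119.7 and 118.2 CPM. Arl14ep was higher at 30.1 CPM from 18.8 CPM. Bnc1 had 1 and 2 UMIs.

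The neighbours of the placed members within 500 kb were mixed, with 13 of 38 measured genes lower and 5 higher. Gpa33, which encodes a gut cell surface antigen and lies 2.32 kb from Dusp27, was lower too, at 24.5 and 3.14 CPM, a ratio of 0.128 (0.0587 to 0.251). Rab11a, a recycling endosome GTPase 1.12 kb from Megf11, was at 24.1 and 24.5 CPM. Near Morc1, Dppa4 (101.7 and 34.5 CPM) and Dppa2 (58.2 and 15.4 CPM), which bind DNA in pluripotent cells and are also in the naive list, and Dzip3 (86.8 and 31.9 CPM) were lower, and Cip2a (98.6 and 79.7 CPM) was not. Of 2 measured genes near Bnc2, Cntln was lower (148.7 and 33.6 CPM). In the opposite direction Sema6a, a semaphorin 311 kb from Arl14epl, was at 35.4 and 2709 CPM, 76.6 times as high at day 2.5 (62.5 to 94.8), while Commd10, 24.6 kb away, was at 279 and 196.6 CPM.

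The members were low together with the naive network. All 13 naive genes with at least 20 UMIs were lower, with a median log2 change of -2.69, where the median of all 13777 genes was -0.06. Esrrb, the nuclear receptor of that network, was at 339 and 12.4 CPM, Fbxo15 at 96.8 and 4.08 CPM and Klf2 had 51 UMIs and none. Nanog, at 89.99 and 22.8 CPM, kept a ratio of 0.253 (0.190 to 0.328). Of 11 formative genes 9 were higher, such as Fgf5 at 3.01 and 120.7 CPM, and Lef1 (1409 and 712 CPM) was lower. Every member's log2 change was lower than that list median, a consequence of how the members were chosen.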

How the data were processed

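RNA and chromatin contacts were measured in single cells, and 1 expression table, 1 X chromosome allele table and the cell tables were used. The deposited tables hold expected counts, UMI counts that are not all whole (11.1% of values above 0 are fractions), per the file headers and values. The deposited cell tables hold counts of contacts and UMIs per cell, a fraction of contacts between chromosomes, a Y over X ratio, other labels (batch, cluster, cell cycle class) and a pseudotime score, per the file headers. Per the submitters' processing notes the genome build was GRCm38. The aligner, the counter and its use of strand were not given in the sources used here. Of the columns, 1101 cells of the expression table and 893 of the allele table match no sample title and were not used.

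Counts were summed as deposited over the cells of a day or class and divided by the summed UMIs (CPM). Days are 1 sample each, so folds, shares and 95% exact intervals are given with no test. Cells were thinned to 5000 UMIs with fractional counts randomly rounded. Log2 changes used a pseudocount of 5 CPM, lists and neighbours (500 kb) a minimum of 20 UMIs, and all genes one of 100 UMIs. Class and batch ratios used genes of at least 100 CPM in either set. A limit of 1.5-fold counted as higher or lower. The measures were tested on simulated data. The genes named are the 6 members, the 3 genes with the highest correlation with each, their families, neighbours and the listed markers; the cell with 5 members was chosen after its values were seen. Members and lists were chosen with earlier results of these data known. Alternatives covered batches, the letters A and B in the cell names (meaning not given in the sources used here), depth, scaling, pseudocount, minimum and detection limit. Python 3.11.15, numpy 2.4.6, pandas 2.3.3 and scipy 1.17.1 were used. Some genes of the lists are not reported here by name.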

Additional observations from a re-analysis of the deposited data

How the results depend on the processing

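Of 291 alternative values, 59 moved beyond the spread allowed, 1 turned its sign and the rest did neither. All 60 alternatives for the log2 changes between the days kept their direction, from -6.17 to -3.94. The changes that moved were -4.31 for Bnc2 with the mean over cells of CPM and -4.79 for Megf11 in cells of the allele table. With a pseudocount of 1 CPM they were -5.08 for Dusp27, -6.17 for Arl14epl and -6.13 for Gm14820, and in letter B cells -4.72 for Arl14epl and -5.82 for Gm14820. Day 2.5 shares thinned to 5000 UMIs were 21.7% for Bnc2, 10.1% for Megf11, 2.02% for Dusp27 and 12.6% for Morc1. At a limit of 2 UMIs they were 22.4% for Bnc2, 6.34% for Megf11, 14.6% for Morc1, 0.488% for Gm14820 and 0% for Dusp27 and Arl14epl. In letter B cells, which are shallower, they were 21.9% for Bnc2, 12.5% for Megf11 and 0% for Arl14epl and Gm14820. Genes with a ratio of at most 0.1, 81 or 1.05% of those tested, were 1.26% of 13777 genes with a minimum of 20 UMIs, 12.4% (3736 genes) with none and 1.13% (49 genes) after thinning, and each set held the 6 members. The share rule was met by 22 genes and 2 members after thinning, in place of 23 and 3, since Arl14epl was then below 50% of day 0.5 cells. Day 2.5 cells with 2 or more members numbered 16 at a limit of 2 UMIs and 15 after thinning, in place of 54.

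Some alternatives were chosen after seeing the data: within batches or letters for the class ratios, without the M class, the G1 class alone, letter B for the variance, and without the cell that showed 5 members, also along the pseudotime. The M ratios of Bnc2 and Megf11 were 0 in letter B, which had 4 M cells. The Late-S over G1 ratio of Bnc2 was 1.94 in batch 1 and 1.90 in letter B, in place of 2.37. The variance of Arl14epl beyond counting error was -0.0931 in letter B, in place of 0.411, which makes it the lowest member there. The cause of these shifts was not tested. No paired analysis was possible because the labels give no replicate numbers that link the days. Depth limits Arl14epl, Gm14820 and Dusp27 at day 2.5, where 2 to 12 UMIs were counted, and Megf11 and Dusp27 in class M, with 3 each. Each day is 1 sample, so the spread between cultures is unknown.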
